A study of Mus musculus with 3 samples.

Results

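Ncr1, Klrb1c, Klrb1b, Klrb1f, Klrd1, Klrk1, Klrc1, Klre1 and Klrg1 are receptor genes known from natural killer (NK) cells, and they were followed across the T cells and innate lymphoid cells of 3 single-cell RNA libraries from mouse lung. They were chosen by symbol, as 9 of the 32285 genes counted, and all 9 were found in the files. Cells came from mice with a GFP reporter for GFI1B; lungs were perfused and digested, and the sort took live CD45+ cells that lacked lineage markers and carried both IL-7R and CD90.2. Strain, age, sex, the number of mice and the lineage antibodies were not given in the sources used here. The first library pools a sort of IL-18R+ CD103+ GFP- cells with a sort of IL-18R+ CD103- GFP+ cells (1655 cells kept), and no barcode can be traced to its sort. The second is labelled IL-18R- CD103- GFP- (1872 cells) and is called the library labelled CD103- GFP- below. The third is labelled IL-18R- ST2+ (1611 cells).

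Each group is 1 library, so no value below has a replicate and no test was made between libraries or cell groups. Levels are counts of unique molecular identifiers (UMIs) of a gene over all UMIs of the same cells, on the CPM scale, and are written UPM. Intervals in square brackets are exact 95% intervals (Poisson for levels, Clopper-Pearson for shares, conditional binomial for ratios) and cover counting error only. A gene was called measured in a comparison when either side reached 20 UPM, and called higher on a side at a ratio of at least 2, with sums under 3 UMIs raised to 3 for the call. A printed ratio uses the sums as counted; against 0 UMIs it is given as "at least", with the 0 raised to 3. Shares of cells with a UMI are given after every cell was thinned to 2000 UMIs unless said otherwise. In a library's sum, fewer cells of a type and less RNA per cell cannot be told apart. Because libraries were made with a 3′ kit, UPM of different genes are not set against each other as expression levels.

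NK receptors set the threshold at which a cytotoxic or cytokine-producing lymphocyte responds, by adding activating and inhibitory signals. Ncr1 encodes NKp46, an activating receptor that signals through Fcer1g and Cd247 and marks NK cells and some innate lymphoid cells. The Klrb1 genes encode the NKR-P1 lectins: Klrb1c is the activating NK1.1, Klrb1b is inhibitory and binds the product of Clec2d, and Klrb1f binds that of Clec2i. Klrd1 encodes CD94, which pairs with the NKG2 chains, among them the inhibitory NKG2A from Klrc1, to read the Qa-1 molecule encoded by H2-T23. Klrk1 encodes NKG2D, an activating receptor that uses the adaptor Hcst. Klre1 encodes a partner of the Klri1 and Klri2 chains, and Klrg1 encodes an inhibitory receptor for cadherins that is also known from group 2 innate lymphoid cells (ILC2) and effector T cells.

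In the GRCm38 annotation, 8 of the 9 genes lie on chromosome 6 within 7.41 Mb, in the NK gene complex. Klre1 (chr6:129577905-129585827, plus strand), Klrd1 (chr6:129591782-129598775, plus), Klrk1 (chr6:129610323-129623864, minus) and Klrc1 (chr6:129666015-129678973, minus) fall within 0.101 Mb. Klrb1c (chr6:128778485-128789215, minus), Klrb1b (chr6:128813706-128826331, minus) and Klrb1f (chr6:129045901-129057464, plus) fall within 0.279 Mb. Klrg1 lies at chr6:122270596-122282882 on the minus strand, and Ncr1 at chr7:4337724-4345164 on the plus strand. Klrb1f overlaps Gm44000 on the opposite strand. Of the 31-base words in the last 500 bases of Klrc1 transcripts, 68.7% (323 of 470) also occur in Klrc2, so the split of UMIs between these neighbours is uncertain; the other 8 genes shared none with a gene of the files.

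The sequences just before the annotated starts of Klrb1b, Klrb1f and Klrc1 are shown because of T cells with at least 10 Ccl5 UMIs, described below. There the first pair was lower and Klrc1 higher, but the pair did not move together in all T cells. The sequences are from RefSeq promoter windows on GRCm38.p6, written 5′ to 3′ on the strand of the gene. For Klrb1b (chr6:128826332-128826565, minus) and Klrb1f (chr6:129045651-129045900, plus), capitals mark a 22-base run that both windows hold, 42 and 68 bases before the end of the window. For Klrc1 (chr6:129678974-129679223, minus), capitals mark ACCACA, the reverse complement of the RUNX core TGTGGT.
Klrb1b: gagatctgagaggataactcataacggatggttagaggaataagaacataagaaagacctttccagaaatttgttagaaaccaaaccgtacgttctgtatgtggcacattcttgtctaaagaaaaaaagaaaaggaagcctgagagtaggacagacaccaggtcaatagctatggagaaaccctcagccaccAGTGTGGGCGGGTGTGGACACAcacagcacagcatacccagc
Klrb1f: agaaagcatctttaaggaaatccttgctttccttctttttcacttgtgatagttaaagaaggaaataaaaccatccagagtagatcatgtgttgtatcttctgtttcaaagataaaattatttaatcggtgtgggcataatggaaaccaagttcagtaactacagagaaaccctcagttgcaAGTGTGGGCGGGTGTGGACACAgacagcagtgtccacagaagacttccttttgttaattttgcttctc
Klrc1: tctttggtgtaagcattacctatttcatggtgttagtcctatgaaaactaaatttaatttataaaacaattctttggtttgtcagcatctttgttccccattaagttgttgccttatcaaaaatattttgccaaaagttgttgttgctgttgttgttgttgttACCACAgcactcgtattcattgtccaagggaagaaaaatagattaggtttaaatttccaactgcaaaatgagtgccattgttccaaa
The table had an entry for 7 of the 9 genes; Klrd1 and Klrg1 had no entry. Searched on both strands in the 250 bases before the start of 27025 genes, the 22-base run was found in 2, Klrb1b and Klrb1f. CCACACCC, which lies inside that run on the other strand, was in 2 of the 7 windows and in 3.19% of all. TGTGGT was in 5 of the 7 (Ncr1, Klrb1c, Klrk1, Klrc1, Klre1) and in 14.2% of all. A match is a string of letters in a window and says nothing of a factor.

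The libraries held 8970571, 9598728 and 7891960 UMIs in kept cells, with medians of 4930, 4768 and 4568 per cell. The library labelled CD103- GFP- carried Il18r1 at 591.8 UPM, against 663.3 in the pool and 15.7 in the ST2+ library, which goes against the IL-18R- of its label. Itgae, which encodes CD103, was at 99.8 UPM in the pool and 3.44 and 2.79 UPM in the others, and Gfi1b had 0 UMIs in all 3. The pool and the library labelled CD103- GFP- shared 1 cell barcode, and the other pairs shared 0.

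At the level of whole libraries, 8 of the 9 genes were more abundant in both libraries with Il18r1 than in the ST2+ library, and Klrg1 was the exception. Klrk1 stood at 149.9 UPM [142–158.2] in the pool, 187.9 [179.4–196.8] in the library labelled CD103- GFP-, and 6.72 in the ST2+ library. Klrd1 stood at 35.7 UPM [31.87–39.8], 161.5 [153.5–169.7] and 2.91 [1.847–4.373] in the same order, and Klrc1 at 12.3 [10.08–14.78], 69.3 [64.11–74.75] and 0.634 (5 UMIs). The CD94 and NKG2A genes were thus highest in the library labelled CD103- GFP-, while the NKG2D gene was near the same level there and in the pool. Klrb1b was at 45.7 UPM [41.39–50.35], 78.2 [72.74–84.04] and 7.73, and Klrb1f at 37.6 [33.66–41.8], 40.01 [36.1–44.21] and 0.127 (1 UMI). Ncr1 was sparse and concentrated: 152 UMIs in 42 cells of the pool (16.9 UPM), 71 UMIs in 27 cells of the library labelled CD103- GFP- (7.40 UPM) and 0 of 1611 cells of the ST2+ library, which allows a share of cells with a UMI of up to 0.186% when 3 cells are taken as the limit. Klrb1c had 24 and 80 UMIs (2.68 and 8.33 UPM) and was likewise found in 0 of 1611 ST2+ cells. Klre1 had 32, 148 and 3 UMIs, the last 3 in 1 cell. Klrg1 ran the other way, at 3.46 UPM [2.348–4.905], 3.65 [2.54–5.071] and 162.3 [153.5–171.5].

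**Figure D1:**
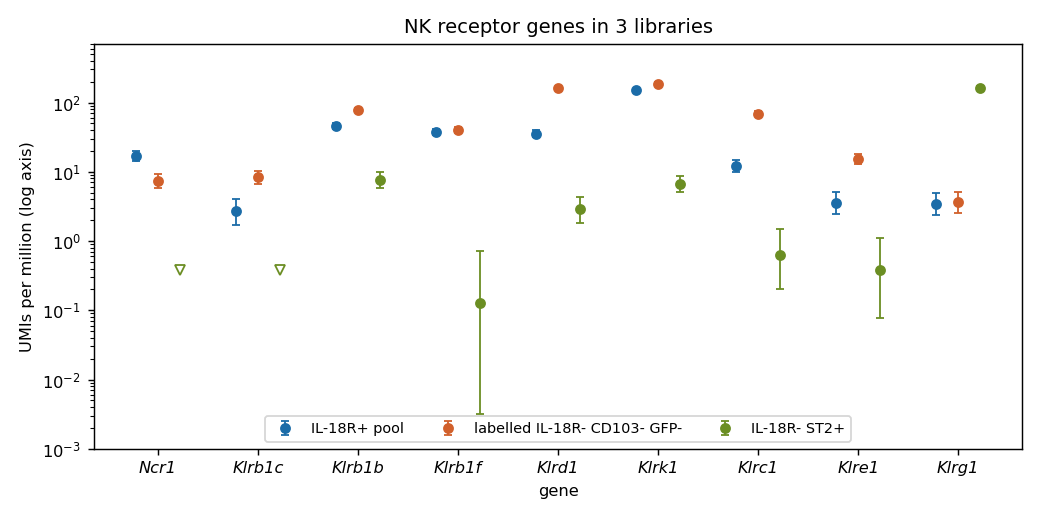
UPM of each of the 9 genes (log axis) in the 3 libraries, given by colour, with exact 95% Poisson intervals; each point is 1 library, and an open triangle marks the level of 3 UMIs where 0 were counted. Klrd1 and Klrc1 are highest in the library labelled CD103- GFP- (161.5 and 69.3), and Klrg1 is highest in the ST2+ library (162.3).

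Against the ST2+ library, the pool had 5 measured members, 4 of them higher in the pool and 1 lower; over all 5930 measured genes, 12.3% and 4.33% were called in those directions. The ratios were 22.3 [17–30] for Klrk1, 12.2 [8.01–19.6] for Klrd1 and 5.91 [4.51–7.87] for Klrb1b; Klrb1f, with 337 UMIs against 1, gave 296 [52.9–11700]. Klrg1 was 47.0-fold [32.9–69.4] higher in the ST2+ library. The library labelled CD103- GFP- had 6 measured members against the ST2+ library, 5 higher and 1 lower, where 9.57% and 5.4% of 5736 genes were called. Klrc1 gave the ratio 109 [46.6–338] and Klrd1 55.4 [36.8–87.7], while Klrg1 was 44.5-fold [31.8–64.2] higher in the ST2+ library. Ncr1, under the 20 UPM minimum, was at least 44.6-fold higher in the pool and at least 19.5-fold higher in the library labelled CD103- GFP- by this floor; the lower ends of the exact intervals are 35.8 and 15.4. The split of all calls depends on the scaling: 74% of the calls against the ST2+ library were higher in the pool with totals, 55.1% with TMM and 52.2% with DESeq2 size factors, and for the library labelled CD103- GFP- the shares were 63.9%, 53.5% and 51.4%. The member counts were unchanged under both.

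Between the pool and the library labelled CD103- GFP-, 5 members were measured; 0 were higher in the pool (2.55% of 5812 genes) and 2 were higher in the other (0.791%). These were Klrc1, 5.65-fold [4.61–6.98], and Klrd1, 4.53-fold [4.01–5.12]. Klrb1b was 1.71-fold [1.52–1.94] higher in the library labelled CD103- GFP-, Klrk1 1.25-fold [1.17–1.35] and Klrb1f 1.06-fold [0.918–1.24], all under the ratio of 2. Below the minimum level, Ncr1 was 2.29-fold [1.72–3.08] higher in the pool, and Klre1 4.32-fold [2.93–6.55] and Klrb1c 3.12-fold [1.95–5.14] higher in the other library. The median log2 ratio of the measured members, pool over the other library, was -0.78, against 0.1 over all measured genes.

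Cells were then split by marker UMIs. A cell with at least 2 UMIs of Cd3d, Cd3e and Cd3g together was gated as a T cell, as gamma delta when it carried Trdc and no Trac and as alpha beta when it carried Trac and no Trdc. Cells with 0 CD3 UMIs were split by Il1rl1 and, among those without it, by Il18r1 with Tcf7. Gamma delta cells were split by Il17a and alpha beta cells by Cd4 and Cd8a.

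Klrk1 was the most widely spread member. After thinning it was found in 9.14% of Il17a-positive and 18.02% of Il17a-negative gamma delta cells of the pool, and in 23.8% of Il17a-negative gamma delta cells of the library labelled CD103- GFP-. In CD3-negative cells with Il18r1 and Tcf7 the shares were 34.6% and 39.5%. In the Il1rl1-positive CD3-negative cells of the ST2+ library, the ILC2 gate, 36 UMIs were counted in 1135 cells (6.51 UPM, 1.24% of cells).

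Klrb1b and Klrb1f were highest in CD3-negative cells and were also counted in gamma delta cells. In CD3-negative cells with Il18r1 and Tcf7, Klrb1b reached 185.4 UPM in the pool (110 cells) against 490.3 in the library labelled CD103- GFP- (76 cells), and Klrb1f 71.1 and 166.7. Among Il17a-positive gamma delta cells Klrb1b was at 25.8 and 53.2 UPM and Klrb1f at 40.9 and 42.6. In alpha beta cells without Cd4 or Cd8a, Klrb1b was at 2.39 UPM in the pool while Klrb1f was at 28.7, so the pair did not track each other there. The 30 Cd8a-positive alpha beta cells of the library labelled CD103- GFP- held 0 UMIs of either gene.

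In gamma delta cells of the library labelled CD103- GFP-, Klrd1 and Klrc1 were lower in cells with Il17a than in cells without it. Klrd1 was at 227.2 UPM in the 834 Il17a-negative cells and 3.19 in the 409 Il17a-positive cells (20.9% against 0.248% of cells). Klrc1 was at 100.7 and 7.45. Most Il17a-negative cells thus had no Klrd1 UMI after thinning. Of the 834, 238 had at least 10 Ccl5 UMIs, and Klrd1 is split by Ccl5 below. In the pool Klrd1 was at 34.0 UPM in Il17a-negative cells and 0.538 (1 UMI) in Il17a-positive cells. All 30 Cd8a-positive alpha beta cells of the library labelled CD103- GFP- carried Klrd1 before thinning (459.3 UPM, 63.3% after thinning), and alpha beta cells without Cd4 or Cd8a held 212.6 UPM there against 20.7 in the pool.

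Most Ncr1 UMIs lay in cells with no CD3 UMI, 131 of 152 in the pool and 64 of 71 in the library labelled CD103- GFP-. CD3-negative cells with Il18r1 and Tcf7 held 72.3 UPM in the pool against 107.9 in the library labelled CD103- GFP-.

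**Figure D2:**
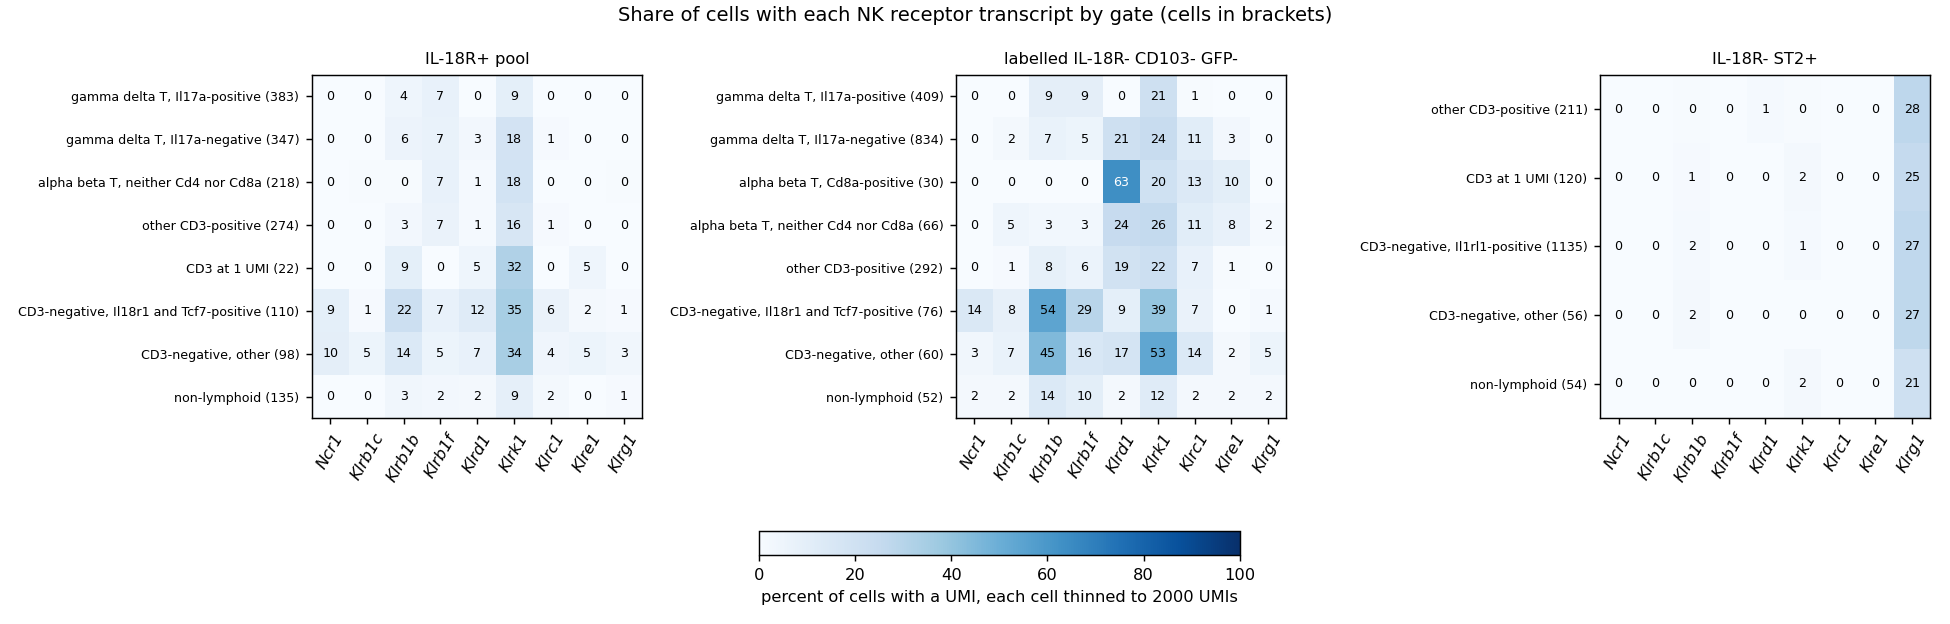
Percent of cells with a UMI of each gene (columns) in each reported gate of at least 20 cells (rows, cell numbers in brackets), 1 panel per library, after thinning to 2000 UMIs per cell; printed values are rounded. Klrg1 stands out in the ST2+ library, Klrd1 in Cd8a-positive alpha beta cells of the library labelled CD103- GFP- (63.3%), and Klrk1 is found in most gates of the pool and of that library.

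Klrg1 was high in the ILC2 gate of the ST2+ library, unlike the other NK receptor genes. The Il1rl1-positive CD3-negative cells of the ST2+ library held 919 UMIs (166.3 UPM [155.7–177.4], 26.8% of cells after thinning and 47.9% before). The few such cells elsewhere had 8 UMIs in 11 cells of the library labelled CD103- GFP- (128.4 UPM [55.44–253]) and 2 UMIs in 15 cells of the pool (21.8 UPM). Gamma delta cells of those libraries were between 0.532 and 0.937 UPM. CD3-negative cells with neither Ncr1 nor Il1rl1 held 17 Klrg1 UMIs in the pool (12.2 UPM). In the library labelled CD103- GFP- they held 16 (23.7 UPM). In both libraries these were more UMIs than in the ILC2 gate, at a lower level. The Il1rl1-positive CD3-negative cells of the ST2+ library carried all 8 genes of the ILC2 marker list (8 of 8 detected, summing to 5025 UPM). That list and its sum include Il1rl1, which sets the gate. Within that library 243 cells passed the CD3 gate, of which 218 carried Il1rl1; these had Cd3g at 654 UPM but Cd3d at 9.83, Klrg1 at 178.7 and Klrd1 at 0. The 25 without Il1rl1 had Cd3d at 589.8 UPM, Klrd1 at 180.2 (22 UMIs in 10 cells) and Klrg1 at 32.8 (4 UMIs). So the few Klrd1 UMIs of the ST2+ library lay mostly in cells of the CD3 gate without Il1rl1. Whether the same cells carried Cd3d was not computed.

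Background, from free RNA or from doublets, was read from cells that should lack these genes, chosen after the data were seen. In cells with at least 10 Lyz2 UMIs, 2 member UMIs were counted in 30 pool cells (median 9343 UMIs) and 0 in 6 cells of each other library (medians 5484 and 13787). The 61 endothelial cells of the pool (median 3202 UMIs) held 24 Klrk1 UMIs in 7 cells (11.5% before thinning, 7.55% after), 7 Klrb1b UMIs in 3 cells and 5 Klrd1 UMIs in 3 cells. Trdc was found in 6.56% of the same endothelial cells. The 18 endothelial cells of the library labelled CD103- GFP- (median 3754 UMIs) carried Trdc in 38.9% of cells before thinning, Klrk1 in 16.7%, and 7 Klrb1b UMIs in 2 cells (74.1 UPM [29.8–152.7]), with 0 Klrd1 UMIs. That Klrb1b level is as high as the levels of gamma delta cells given for this library. The 121 Trdc UMIs of the 18 endothelial cells all lay in 7 of them, and the Lyz2 cells of this library held 0. Whether such counts came from free RNA or from doublets was not tested. The wider non-lymphoid gate, whose cells also carried T cell transcripts, held Klrk1 in 8.73% of pool cells and in 11.8% of cells of the library labelled CD103- GFP-, and Klrb1b in 3.18% and 13.7% (52 cells in the latter, with a median of 4679 UMIs). The Klrk1 share of 9.14% in Il17a-positive gamma delta cells of the pool, and the Klrb1b shares of gamma delta cells in the library labelled CD103- GFP- (9.43% with and 7.03% without Il17a), were thus near or below these and cannot be told from background by the share alone. Klrb1b was found in 0 of the 240 gamma delta cells of that library with at least 10 Ccl5 UMIs [0–1.525%].

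The members were next compared in 3 populations: T cells with at least 10 Ccl5 UMIs (Ccl5-high) against T cells with 0; gamma delta cells with Cxcr3 against those without; and CD3-negative cells with Ncr1 against CD3-negative cells with neither Ncr1 nor Il1rl1. The pool held 17, 131 and 36 such cells, the library labelled CD103- GFP- 355, 496 and 23, and the ST2+ library 5, 1 and 0. A population was compared only with at least 20 cells on both sides. Ccl5-high T cells of the library labelled CD103- GFP- had a median of 6815 UMIs against 4495, and Ncr1-positive cells 7365 against 5886 in the pool and 6039 against 4800 in the other library. Cxcr3-positive gamma delta cells were about as deep as their counterparts (medians of 4615 against 4690 in the pool and 4614 against 4699 in the other library).

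Ccl5-high T cells of the library labelled CD103- GFP- carried CD94 and NKG2 genes and almost none of the inhibitory NKR-P1 gene. They held 1362 Klrd1 UMIs in 328 of 355 cells, 549 UPM [520.5–579.3] against 5.95 [4.119–8.312] in 1240 Ccl5-negative T cells, a ratio of 92.4 [65.8–134] (69.01% against 0.898% of cells). Klrc1 was at 225 UPM [206.8–244.5] against 5.60 [3.829–7.903], a ratio of 40.2 [28.1–59.4] (28.7% against 1.22% of cells). Klre1 had 142 UMIs in 78 cells (57.3 UPM [48.24–67.5]) against 0, at least 109-fold higher by the floor (lower end of the exact interval 87.6). Of the 6 measured members these 3 were higher and 2 lower, where 4.79% and 17.1% of 5768 genes were called. The lower genes were Klrb1f, 12.8-fold [6.39–30] (8 UMIs in 7 cells), and Klrb1b, 12.2-fold [7.03–23.1], whose 13 UMIs all lay in 1 cell. Klrk1, at 152 UPM [137.1–168.2] against 170.6 [160–181.6], gave a ratio of 0.891 [0.789–1] and did not separate the populations. Klrb1c was under the minimum level at 18.2 UPM against 1.57, a ratio of 11.5 [5.56–26.8] (45 UMIs in 27 cells), and Ncr1 had 3 UMIs in 1 cell. Klrg1 had 5 UMIs on each side.

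The 17 Ccl5-high T cells of the pool were too few for the comparison. They held 70 Klrd1 UMIs in 16 cells (612.6 UPM [477.6–774]) and 25 Klrc1 UMIs (218.8 [141.6–323]). Klrb1b, Klrb1f, Klrb1c, Ncr1 and Klrg1 had 0 UMIs in them.

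The high Klrd1 level was seen in each T cell gate. The Ccl5-high cells of the library labelled CD103- GFP- included 240 gamma delta cells, 238 of them without Il17a, 47 alpha beta cells, 26 with Cd8a, and 68 other CD3-positive cells. Klrd1 stood at 585.5 UPM in the gamma delta, 488.5 [419.9–565] in the alpha beta and 478 [419.3–542.6] in the other cells. Klrb1b had 0 UMIs in the 240 gamma delta and the 47 alpha beta cells. Klre1 was higher in alpha beta (140.3 UPM [104.8–184]) than in gamma delta cells (45.4). Klrc1 was lower in alpha beta (137.6 UPM [102.5–181]) than in gamma delta cells (253.6). The 30 gamma delta cells with 1 to 9 Ccl5 UMIs were between the extremes for Klrd1, at 167.3 UPM [107.2–248.9], and still held Klrb1b at 48.8 [19.62–100.5].

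The gamma delta cells with many Ccl5 UMIs also differed from the rest in receptor chain genes. Against the 973 gamma delta cells with 0 Ccl5 UMIs, they held Trdc at 886.9 UPM against 2715, Trdv4 at 21.8 against 1228, Tcrg-V6 at 3.11 against 191.1 and Il17a at 1.24 against 617.6. Ly6c2, a surface antigen of memory-type CD8 T cells, was at 1088 UPM against 1.14. All 7 genes of the gamma delta marker list were lower in Ccl5-high T cells as a whole, with a median log2 ratio of -5.47. The T cell list, which holds Cd3d, Cd3e and Cd3g of the gate, was detected in 9 of 9 genes, summing to 3850 UPM. The NK and ILC1 list was detected in 9 of 9, summing to 817.1. Against Ccl5-negative T cells, 1 of 9 measured T cell genes was higher and 2 lower. Of 5 measured NK and ILC1 genes, 3 were higher and 0 lower. The part of a mixed gate or of doublets in these values was not tested; Scrublet calls, 26 of 5164 cells in the 3 libraries, were left out.

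**Figure D3:**
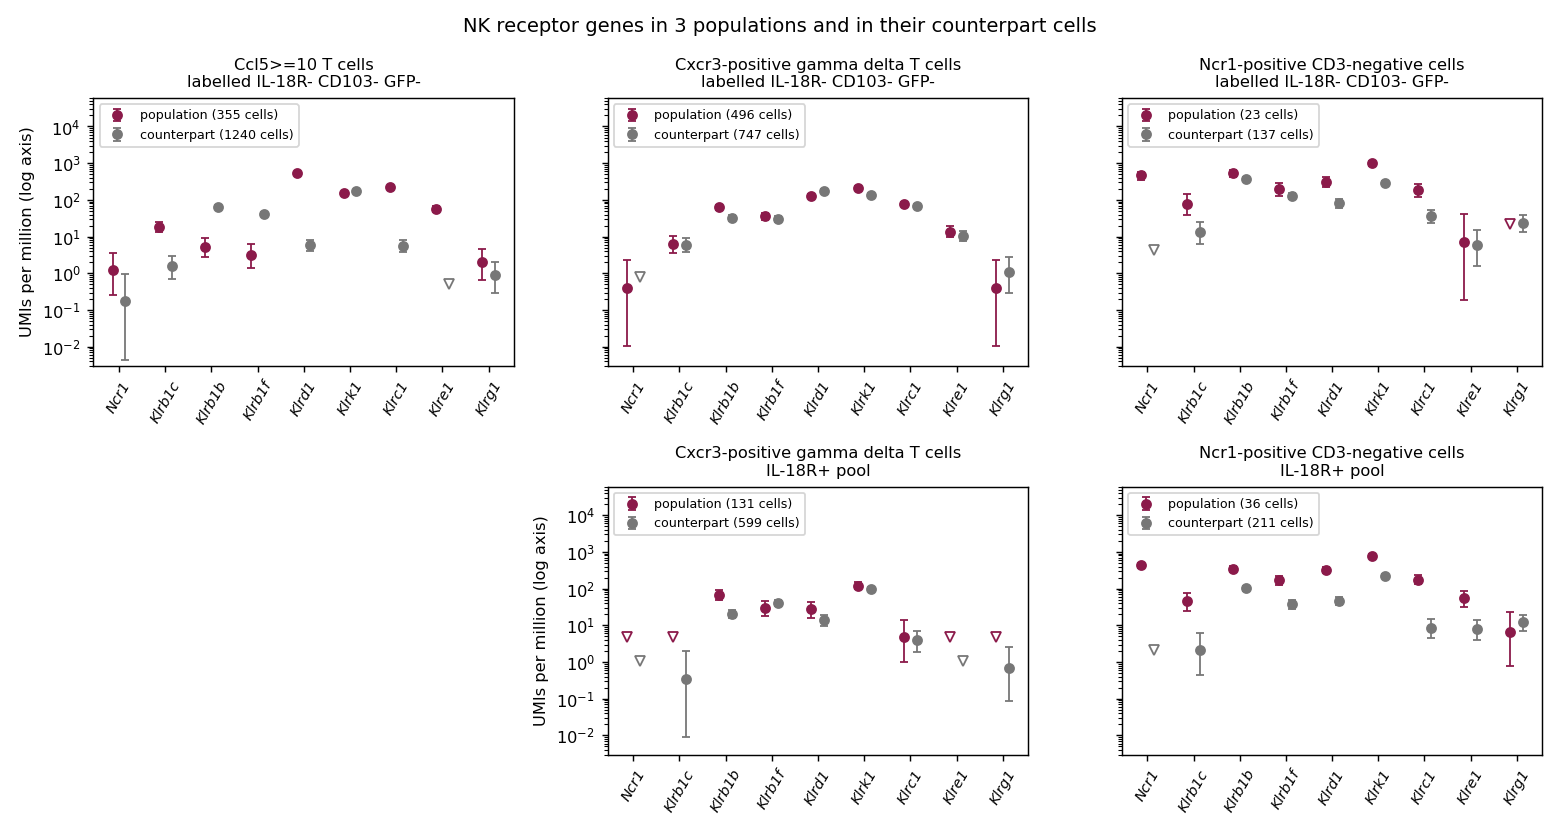
UPM of each gene (log axis) in a population (dark red) and its counterpart (grey), 1 panel per population and library that could be compared, with exact 95% Poisson intervals; an open triangle marks the level of 3 UMIs where 0 were counted, and the Ncr1 level of the Ncr1 gate is set by the gate. In Ccl5-high T cells Klrd1 and Klrc1 are high (549 and 225) and Klrb1b low (5.24), and in Ncr1-positive CD3-negative cells all 3 are high.

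Cxcr3, the receptor for interferon-induced chemokines, marked gamma delta cells with a higher Klrb1b level in the pool, and no other member was called in either library. In the pool Klrb1b was at 67.1 UPM [48.36–90.71] in Cxcr3-positive cells (42 UMIs in 22 cells) against 20.4 [15.45–26.31], a ratio of 3.3 [2.16–4.99] (10.8% against 3.69% of cells). It was the 1 member of 4 measured that was called there, where 1.11% of 5791 genes were called higher and 1.43% lower. Klrd1, at 27.2 UPM against 13.7, gave 1.98 [1.05–3.59], but its 17 UMIs lay in 2 cells, and Klrk1, at 121.4 UPM against 95.4, gave 1.27 [0.973–1.65]. Klrb1f, at 30.36 UPM against 39.65, gave 0.766 [0.445–1.25]. In the library labelled CD103- GFP- 0 of 5 measured members were called, where 0.178% of 5608 genes were called higher and 0.0892% lower. Klrb1b was at 63.6 UPM against 32.2 there, a ratio of 1.97 [1.55–2.53] (11.3% against 5.45% of cells). Klrk1 was at 215.3 UPM against 137.9, a ratio of 1.56 [1.38–1.77]. Klrd1 was at 130.4 UPM against 178, a ratio of 0.732 [0.639–0.838], and Klrc1 at 77.3 against 68.8, a ratio of 1.12 [0.926–1.36].

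Splitting the gamma delta cells of the library labelled CD103- GFP- by both genes separated the patterns. Of the 324 Klrd1 UMIs in Cxcr3-positive cells, 318 lay in the 79 cells that were also Ccl5-high and 6 in the other 417. Cxcr3-positive cells with under 10 Ccl5 UMIs held Klrb1b at 81.6 UPM [69.38–95.37] and Klrk1 at 223.6 [203.1–245.7], the highest Klrb1b level of the 4 groups, with Klrd1 at 3.10. Cells with neither marker (586) held Klrb1b at 45.3 UPM, Klrk1 at 135.6 and Klrd1 at 10.8. The 161 Ccl5-high cells without Cxcr3 held Klrd1 at 588.7 UPM [543.5–636.8] and Klrc1 at 221.7 [194.3–252]. The 79 Ccl5-high cells with Cxcr3 held Klrd1 at 579.2 UPM [517.3–646.5] and Klrc1 at 315.1 [269.9–365.7]. Klrb1b had 0 UMIs in both of the latter. In other words Klrd1 differed by Ccl5 with or without Cxcr3. Among cells with under 10 Ccl5 UMIs, Klrb1b was higher with Cxcr3 than without (81.6 against 45.3 UPM), but under the ratio of 2. Both levels lie within the interval of the endothelial cells of this library (74.1 UPM [29.8–152.7]). The 79 shared cells were 22.3% of the Ccl5-high T cells and 15.9% of the Cxcr3-positive gamma delta cells; in the pool 0 cells were shared.

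**Figure D4:**
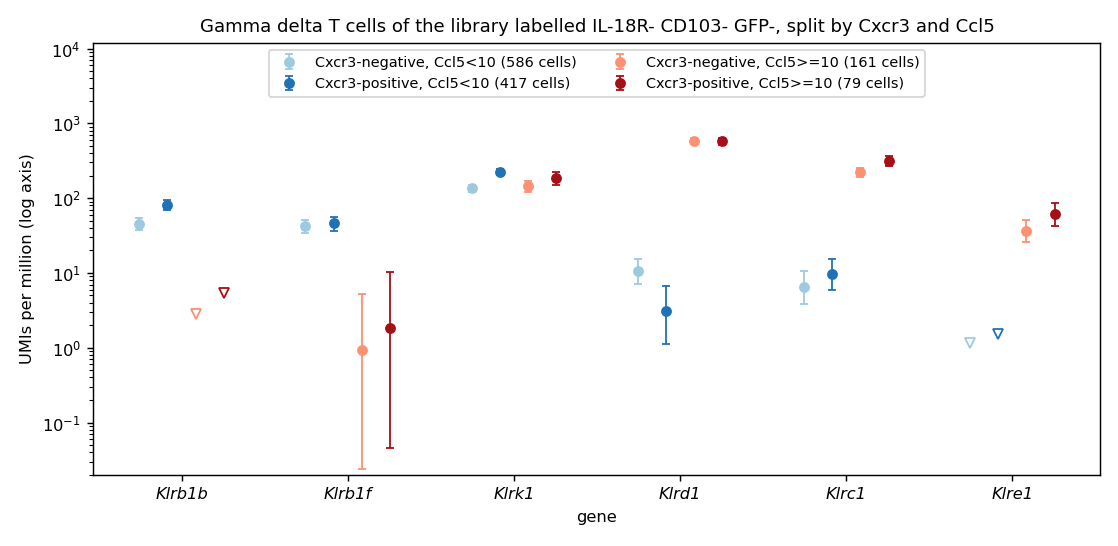
UPM (log axis) of 6 genes in gamma delta cells of the library labelled CD103- GFP-, split by Cxcr3 and by at least 10 Ccl5 UMIs (colours), with exact 95% Poisson intervals; an open triangle marks the level of 3 UMIs where 0 were counted. Klrd1 and Klrc1 follow Ccl5 in cells with and without Cxcr3, and Klrb1b is at 0 in both Ccl5-high groups.

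Among the Cxcr3-positive gamma delta cells of that library, 146 of 496 (29.4%) carried Il17a, and 51 of 131 (38.9%) did in the pool. In the library labelled CD103- GFP-, the Il17a-positive ones held Klrd1 at 7.29 UPM (5 UMIs in 2 cells) and Klrb1b at 81.6. The 350 Il17a-negative ones held Klrd1 at 177.3 and Klrb1b at 56.7.

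Ncr1-positive CD3-negative cells carried the broadest set. In the pool 7 of the 8 members other than Ncr1 were higher than in the 211 counterpart cells, where 8.29% of 6274 genes were called higher and 6.63% lower. Klrk1 was at 785 UPM [689–890.6] against 225.5, a ratio of 3.48 [2.93–4.13], and was found in 69.4% against 28.5% of cells. Klrc1 was at 175.9 UPM [132.1–229.5] against 8.59 (20.5-fold [10.8–42]), and Klrd1, with 101 UMIs in 15 cells, at 329 [267.9–399.7] against 45.8 (7.18-fold [5.2–9.98]). Klrb1b was at 351.8 UPM [288.6–424.7] against 101 (3.48-fold [2.69–4.51]) and Klrb1f at 172.6 [129.3–225.8] against 37.2 (4.64-fold [3.1–6.93]). Klrb1c, the NK1.1 gene, had 14 UMIs in 7 cells (45.6 UPM against 2.15, 21.2-fold [5.92–115]), and Klre1 17 UMIs in 10 cells (55.4 UPM against 7.88, 7.03-fold [3.11–16.6]). Klrg1 had 2 UMIs. These 36 cells were thus higher for the NKR-P1 genes and for Klrd1 with its NKG2 partner, whereas in Ccl5-high T cells of the library labelled CD103- GFP- Klrd1 was higher and Klrb1b and Klrb1f lower; the difference between the populations was not tested.

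In the library labelled CD103- GFP- the gate held 23 cells, and 4 of the 8 members were called higher, where 13.2% of 6546 genes were called higher and 5.29% lower. Klrk1 was found in all 23 cells before thinning, at 998.2 UPM [838.6–1179] against 287.7 (3.47-fold). Klrd1 was at 311 UPM [225.1–418.9] against 81.6 (3.81-fold), Klrc1 at 188.1 [122.8–275.6] against 35.6 (5.28-fold) and Klrb1c at 79.6 [39.72–142.4] against 13.4 (5.96-fold [2.25–16.3]). The inhibitory Klrb1b was high on both sides, at 528 UPM [413.9–663.9] against 367.8, and Klrb1f was at 195.3 against 129, so neither reached the ratio of 2. Klre1 had 1 UMI, and Klrg1 had 0 UMIs in the 23 cells against 16 in the 137 counterpart cells.

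These cells were then checked against markers. All 9 genes of the NK and ILC1 list, which holds Ncr1 (the gate) and Klrb1c, were detected in the pool's 36 cells, summing to 2612 UPM; in the 23 cells of the other library 7 of 9 were, summing to 2937, with Prf1 and Gzma at 0. Eomes, a transcription factor of NK cells, was at 52.1 UPM in the pool and 21.7 (3 UMIs) in the other library, and Gzma at 892.4 UPM in 6 cells of the pool. Cd3d, Cd3e and Cd3g were at 0 by the gate, and Cd5 and Cd6 were at 0 in the pool, while Trbc1 was at 661.2 UPM and Trbc2 at 488.6. Kit was at 172.6 and 101.3 UPM and Tcf7 at 218.2 and 282.1. The gate for Il18r1 with Tcf7 held 17 of the 36 cells and 15 of the 23. No cell type name was given to the Ncr1-positive cells. The counterpart cells of the pool differed in other markers: 3 of 3 measured myeloid genes (median log2 ratio -3.54), 5 of 5 ILC2 genes (-1.27) and 4 of 4 gamma delta genes (-2.09) were lower in the Ncr1-positive cells. In the other library these were 2 of 3, 0 of 4 and 2 of 3. The part of this makeup in the ratios of the members, Fcer1g and Tyrobp was not tested.

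Of the 8 members other than Ncr1, which sets a gate, 0 were called higher in all 3 populations of the library labelled CD103- GFP-. The Cxcr3 comparison fixed this count, as it called 0 members and 0.178% of 5608 genes higher. Klrd1 and Klrc1 were called higher in both Ccl5-high T cells and Ncr1-positive CD3-negative cells. Of all measured genes, 4.79% and 13.2% were called higher in these populations, and the share called in both was not computed. By level alone, 3 members reached 20 UPM in all 3 populations: Klrd1, Klrk1 and Klrc1. Klre1 reached it in Ccl5-high T cells, Klrb1b and Klrb1f in the other pair of populations, and Klrb1c in Ncr1-positive cells. Klrd1 and Klrc1 in the Cxcr3-positive gamma delta cells rest on the 79 Ccl5-high cells, as given above.

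The number of members per cell was highest in Ncr1-positive CD3-negative cells. After thinning, at least 2 of the 8 members other than Ncr1 were found in 66.7% (24 of 36) of Ncr1-positive CD3-negative cells of the pool and 91.3% (21 of 23) of those of the library labelled CD103- GFP-, against 12.1% and 35.6% of counterpart cells. Among Ccl5-high T cells it was 37.8% (134 of 355) against 6.69%. Among Cxcr3-positive gamma delta cells it was 4.62% against 2.35% in the pool and 15.8% against 11.6% in the other library. In the ST2+ ILC2 gate it was 0.711%.

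Within single cells, Klrd1 and Klrb1b rarely met in gamma delta T cells but did in CD3-negative cells. The shares that follow are before thinning. In gamma delta cells of the library labelled CD103- GFP-, 3 of 232 cells with Klrd1 carried Klrb1b (1.29% [0.2675–3.732]), against 148 of 1011 without Klrd1 (14.6% [12.52–16.97]). In the pool it was 0 of 14 against 55 of 716. In CD3-negative cells without Il1rl1 the direction was the opposite: 26 of 34 cells with Klrd1 carried Klrb1b in the pool (76.5% [58.83–89.25]) against 53 of 213 without (24.9% [19.23–31.25]), and 23 of 27 against 93 of 133 in the other library. In Ncr1-positive CD3-negative cells 13 of 15 cells with Klrd1 carried Klrb1b in the pool and 12 of 14 in the other library. In both libraries more cells with both genes were thus found among CD3-negative cells without Il1rl1 than among gamma delta cells.

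Klrd1 was found more often in T cells with its partner genes than without. In gamma delta cells of the library labelled CD103- GFP-, 128 of 157 cells with Klrc1 carried Klrd1 (81.5% [74.56–87.27]), against 104 of 1086 without (9.58%). In alpha beta cells it was 20 of 23 against 31 of 80, and in gamma delta cells of the pool 6 of 10 against 8 of 720. CD3-negative cells were mixed: in Ncr1-positive cells it was 9 of 14 against 6 of 22 in the pool and 6 of 8 against 8 of 15 in the other library, but in the Ncr1-negative counterpart of the pool 0 of 6 cells with Klrc1 carried Klrd1, against 19 of 205 without. Klre1 was found almost always with Klrd1, in 75 of 78 CD3-positive cells with Klre1 (96.2% [89.17–99.2]) against 280 of 1560 without. Klrb1c in gamma delta cells went with Klrd1 (20 of 27 cells, against 212 of 1216) more than with Klrb1b (2 of 27, against 149 of 1216), although Klrb1c and Klrb1b are neighbours of 1 family. Klrk1 made little difference to Klrd1 in these cells, with 78 of 452 cells against 154 of 791.

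**Figure D5:**
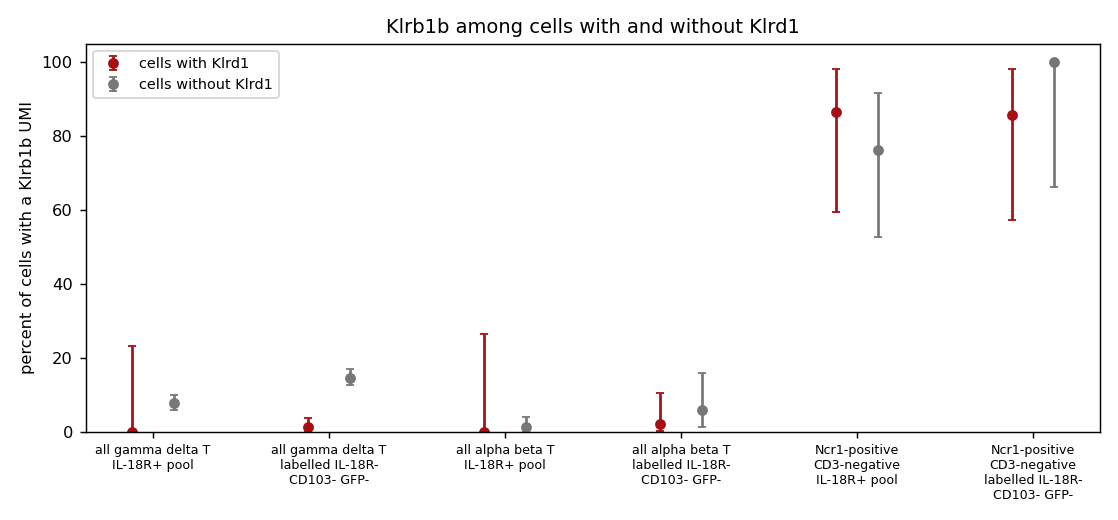
Percent of cells with a Klrb1b UMI among cells with Klrd1 (red) and without (grey), before thinning, with exact 95% Clopper-Pearson intervals, for gamma delta, alpha beta and Ncr1-positive CD3-negative cells of each library. Among gamma delta cells of the library labelled CD103- GFP-, Klrb1b is in 1.29% of cells with Klrd1 and 14.6% without, and among the Ncr1-positive cells the intervals of the 2 sides overlap.

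Genes of the same pathways were described by 4 lists: other NK receptors, adaptors and signalling molecules, ligands, and a type 1 programme. In Ccl5-high T cells of the library labelled CD103- GFP-, 6 of 25 other NK receptors were measured, 4 higher, 1 lower and 1 neither, with a median log2 ratio of 2.8 against -0.3 over all measured genes. Klrc2, which encodes the activating CD94 partner NKG2C, was at 144.4 UPM against 3.50 (41.3-fold [26.3–68.4]), with the uncertain split from Klrc1 given above. Klra7, a Ly49 gene, had 104 UMIs against 0, at least 79.9-fold higher. Cd160 was at 56.1 UPM against 4.02 (13.9-fold [8.92–22.7]) and Slamf7 at 26.6 against 7.70. Cd226, an activating receptor, was lower, at 63.3 UPM against 246.5. Of 10 measured adaptors and signalling genes 3 were higher, 4 lower and 3 neither: the kinase gene Lck was at 222.6 UPM against 26.9, Sh2d1a at 100.8 against 14.5 and Fcer1g at 35.5 against 5.95, while Cd247 was at 96.8 against 268 and Ptpn6 at 45.6 against 141.9. Of 14 measured type 1 genes 10 were higher and 2 lower, a count that includes Ccl5, the gate. Eomes was at 42.8 UPM against 0.525 and Xcl1, a chemokine of NK and CD8 T cells, at 102.4 against 2.10.

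In Ncr1-positive CD3-negative cells most measured NK receptors and type 1 genes were higher, and most adaptors were not called. In the pool 11 of 12 measured other NK receptors were higher and 0 lower (median log2 ratio 2.51, against 0.1 over all measured genes), among them Klra9, at 68.4 UPM against 2.15, and Klri2, the partner chain of Klre1, at 68.4 against 5.01. Of 11 measured adaptors 2 were higher and 0 lower. Fcer1g, the NKp46 adaptor, was at 1453 UPM against 418.2 (3.47-fold), and Tyrobp, another adaptor of activating receptors, at 768.7 against 393.8 (1.95-fold). Of 13 type 1 genes 12 were higher, with Ifng at 78.2 UPM against 7.88 and Prf1 at 104.2 against 10.02. In the library labelled CD103- GFP- 4 of 7 NK receptors, 5 of 11 adaptors and 9 of 12 type 1 genes were higher, against 13.2% of 6546 genes. The count of lower genes was 0, but 3 UMIs are 21.7 UPM in these 23 cells, which leaves little room for a lower call. Some higher calls rest on few UMIs, such as Syk, 4 against 8 (2.44-fold [0.537–9.1]), and Klri2, 3 against 2. Xcl1 was at 1092 UPM against 209.1 and Tbx21, the T-bet gene, at 130.2 against 20.8. The adaptors therefore differed between the populations: in gamma delta cells with at least 10 Ccl5 UMIs Fcer1g was at 32.3 UPM and Tyrobp at 13.7, far under their levels in Ncr1-positive cells, while Hcst, the NKG2D adaptor, was at 873.9 UPM there and at 540.7 and 802.9 in the Ncr1-positive cells of the pool and the other library.

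Cxcr3-positive gamma delta cells showed few such differences. Of the other NK receptors 0 of 2 measured were called in the pool and 0 of 3 in the library labelled CD103- GFP-, and of adaptors 1 of 8 (Sh2d1a, 27.2 UPM against 12.6) and 0 of 9. In the pool 4 of 7 type 1 genes were higher, Cxcr3 itself being the gate. Ifng was at 39.9 UPM against 5.61 (7.12-fold), Tbx21 at 30.4 against 7.72 (3.93-fold) and Itga1 at 41.5 against 11.6 (3.59-fold). Ccl5 was lower, with 2 UMIs against 437. However, 717 of the 730 gamma delta cells of the pool held 0 Ccl5 UMIs, and the 7 cells with at least 10 all lacked Cxcr3. In the other library Cxcr3 was the 1 gene of 9 that was called.

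Few ligand genes were called. In Ccl5-high T cells 3 ligand genes were measured, and Clec2i, whose product binds NKR-P1F, was higher at 54.04 UPM against 16.8 (3.22-fold); Clec2d and H2-T23 were not called. In Ncr1-positive cells 0 of 3 measured ligands were called in either library.

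The lists were also compared between libraries. Of all measured genes, 2.55% were called higher in the pool than in the library labelled CD103- GFP-, and 0.791% lower. Of the 4 other NK receptors measured between the pool and the library labelled CD103- GFP-, 2 were higher in the latter, Klrc2 (46.05 against 9.81 UPM) and Cd160. Of 12 type 1 genes 7 were higher there and 1 in the pool, Gzma (43.4 against 1.98 UPM). Tyrobp was the 1 adaptor of 11 that was called, 4.58-fold higher in the pool. Markers of other cells were higher in the pool beside it: 3 of 3 measured myeloid genes (median log2 ratio 2.36), 4 of 4 of stroma, endothelium and epithelium (4.37) and 2 of 3 of B cells (2.9). Their part in the Tyrobp difference was not tested. Against the ST2+ library all 9 measured type 1 genes were higher in the pool, and all 10 in the library labelled CD103- GFP-.

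Across the 19 lineage-by-library groups of at least 50 cells, the genes whose log2(UPM + 1) was most like each member were found by Pearson correlation, as a description over groups that share 3 libraries. Klrc2 (0.973, with the uncertain split from Klrc1 given above), Klrd1 (0.938) and Cd160 (0.93) were most like Klrc1. Most like Klrd1 were Ms4a4b (0.96), Klrc2 (0.952) and Nkg7 (0.942). Most like Klrb1c were Klrc2 (0.922), Mfsd6 (0.912) and Xcl1 (0.91). For Klre1 they were Samd3 (0.892), Klrc2 (0.875) and Mrpl9 (0.853), and for Ncr1 Batf3 (0.935), Snhg5 (0.911) and Pdgfa (0.906). Klrb1b was most like Slbp (0.934), Gm36723 (0.903) and Tab2 (0.889), Klrb1f was like Gch1 (0.943) and Tec (0.937), and Klrk1 like Rb1cc1 (0.961), Tpm4 (0.938) and Nfatc1 (0.938). Klrg1 was most like Gata3 (0.957), the ILC2 transcription factor, then Mvb12b (0.948) and Nr4a1 (0.947). Between members the values ran from 0.938 for Klrd1 with Klrc1 down to -0.72 for Klrg1 with Klrb1f, and Klrg1 was negative with all 8 others.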

How the data were processed

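The deposited files hold raw UMI counts per gene and cell barcode for 3 libraries made with the 10x 3′ v3.1 kit. Cell Ranger 6.0.1 and the mm10 build are named in the submitters' processing notes; the authors' other settings were not given in the sources used here. A barcode was kept when it had 500 or more genes and no more than 10% of its UMIs from mitochondrial genes, and Scrublet calls (scanpy 1.11.5, expected rate 0.8% per 1000 barcodes) were left out. Raw counts were summed per library, lineage and population and divided by the cells' total UMIs. With 1 library per group no test was made. Calls needed 20 UPM on either side and a ratio of 2, with sums raised to 3 UMIs. Cells were thinned to 2000 UMIs for shares, leaving out 19, 19 and 14 shallower cells of the pool, the library labelled CD103- GFP- and the ST2+ library. The genes and lists were chosen with earlier results of these data known. Named beyond the 9 members were up to 5 measured genes per list and comparison with the largest absolute log2 ratio, and the 3 genes most like each member; genes outside this rule are markers and chain genes added as values. Scaling was repeated with edgeR 4.0.16 and DESeq2 1.42.0, which gave size factors only. The code was tested on simulated data. A gate of CD3-negative cells, whose cells were left out of the gate for Il18r1 with Tcf7, and a gene like Klrb1f are not reported here.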

Additional observations from a re-analysis of the deposited data

How the results depend on the processing

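No paired analysis was possible because each group holds a single library. With no minimum level, but more than 3 UMIs on a side, the members higher in the pool than in the library labelled CD103- GFP- went from 0 to 1 (Ncr1), those higher in the latter from 2 to 4, those higher than in the ST2+ library from 4 to 8 for the pool and from 5 to 8 for the library labelled CD103- GFP-, and those of Ccl5-high T cells from 3 to 5 (Klrb1c and Klrg1 added; Ncr1, with 3 UMIs, was not tested). In Cxcr3-positive gamma delta cells of the pool the count went from 1 to 2 (Klrd1) with a cut of 2 UMIs, with all barcodes, with Scrublet calls kept and, in an alternative chosen after seeing the data, without Ccl5-high cells. In those of the library labelled CD103- GFP- it went from 0 to 1 (Klrb1b, whose ratio lies just under 2) with all barcodes, with Scrublet calls kept and with sums thinned to 2000 UMIs. The cause was not tested. TMM and DESeq2 size factors shifted every log2 ratio by -0.14 and -0.15 for the pool over the library labelled CD103- GFP-, by -0.28 and -0.32 for the pool over the ST2+ library, and by -0.15 and -0.17 for the library labelled CD103- GFP- over the ST2+ library, and no member changed direction. The count of members called in all 3 populations was 0 in each setting evaluated; settings that left under 20 cells on a side could not be evaluated. Without cells over 2 times the median of UMIs, 4 of 16 log2 ratios moved beyond their interval, to -0.99 for Klrb1b, -2.4 for Klrd1, -0.43 for Klrk1 and -2.93 for Klrc1 (pool over the library labelled CD103- GFP-), with the same direction and calls. Of 106 shares, 41 moved beyond their interval with no thinning and 49 with thinning to 1000 UMIs. Depth limits the small populations: 3 UMIs are 21.7 and 9.77 UPM in the 23 and 36 Ncr1-positive cells and 26.3 UPM in the 17 Ccl5-high T cells.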
